A study of Mus musculus with 13 samples.

Results

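The genes described here are Zic1, Zic2, Zic4 and Zic5, which lie as 2 gene pairs on autosomes of the mouse. The members are the H3K27me3 peaks of both deposited peak lists that overlap a window of 150 kb around each pair. On mm9 these windows run from 91.2 to 91.35 Mb on chromosome 9 for Zic1 and Zic4 and from 122.8 to 122.95 Mb on chromosome 14 for Zic2 and Zic5. They held 4 of the 1053 peaks from H3.1K27M cells and 2 of the 1192 peaks from H3.3K27M cells. Peaks of both lists that overlapped by at least 1 bp were joined into regions, and the member peaks formed 2 of 1383 regions. The windows were selected on the peak positions of these 2 lists, because both lists have peaks there, and 60.1% of all regions hold peaks of both lists. Peak presence and width at these genes are therefore described without a test.

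The study profiled chromatin of mouse embryonic fibroblasts, connective tissue cells grown from embryos, by immunoprecipitation of nucleosomes and sequencing. Both groups used here are fibroblasts transduced with lentivirus for stable expression of a mutant histone, H3.1K27M in one group and H3.3K27M in the other. H3.1 is deposited mainly when DNA is copied, and H3.3 throughout the cell cycle. In each mutant the lysine at position 27 of histone H3 is replaced by methionine. The antibody recognised H3K27me3, the trimethylated form of that lysine. The labels describe 13 samples, and each of these groups has 2 replicate samples that share 1 deposited peak list. The control cells were not analysed here, so the lists compare the mutants with each other only. The mutant histone came from a virus added to the cells, and the labels do not name its promoter or say whether the cells were a clone. The lists hold no expression values, so the fibroblast label could not be checked against marker genes.

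Zic genes encode transcription factors with a block of zinc fingers related to those of the Gli proteins, the effectors of Hedgehog signalling. They act early in the nervous system, in the neural plate border, dorsal neural tube, cerebellum and forebrain. Zic1 and Zic4 are known for cerebellar development, Zic2 for forebrain patterning, where its loss leads to holoprosencephaly, and Zic5 for neural crest development. In cell types that do not use such developmental regulators, Polycomb repressive complex 2 (PRC2) places H3K27me3 over them, often as a broad domain that spreads from CG-rich start sites. H3 with methionine at position 27 inhibits PRC2.

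Each pair sits together in the genome with no other protein-coding gene between its members. In the RefSeq gene table of the later assembly GRCm38, the order is Tbc1d2b, Zic1, Zic4, Plscr5 on chromosome 9 and Clybl, Zic5, Zic2, Pcca on chromosome 14. That assembly differs from mm9, so gene ends were not placed inside the peaks. Of the 4 genes, 3 had an entry in the RefSeq promoter table. The 250 bases before each start site are printed 5′ to 3′ on the strand of the gene, with every CG dinucleotide in capitals, because CG-rich starts are where Polycomb domains of developmental genes are usually centred. Zic1 is on the minus strand (GRCm38.p6 chr9:91365769-91366018), Zic4 on the plus strand (GRCm38.p6 chr9:91368722-91368971) and Zic5 on the minus strand (GRCm38.p6 chr14:122465659-122465908). Zic2 was the gene without an entry. In the RefSeq gene table the spans of Zic1 and Zic4 overlap, but their printed starts lie apart and point away from each other. A further start, not printed here, therefore exists for Zic1 or Zic4, and each sequence stands for the listed start only.
Zic1: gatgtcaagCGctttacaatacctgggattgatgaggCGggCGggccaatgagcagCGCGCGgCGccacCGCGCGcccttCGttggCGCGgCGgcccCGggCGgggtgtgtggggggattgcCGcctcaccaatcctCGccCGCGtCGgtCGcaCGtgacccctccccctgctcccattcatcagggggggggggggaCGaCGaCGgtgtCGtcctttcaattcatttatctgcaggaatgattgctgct
Zic4: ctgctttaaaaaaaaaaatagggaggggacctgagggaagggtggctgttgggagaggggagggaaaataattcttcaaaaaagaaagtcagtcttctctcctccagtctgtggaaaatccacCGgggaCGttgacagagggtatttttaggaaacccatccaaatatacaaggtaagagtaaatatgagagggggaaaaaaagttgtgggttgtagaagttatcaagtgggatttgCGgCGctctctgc
Zic5: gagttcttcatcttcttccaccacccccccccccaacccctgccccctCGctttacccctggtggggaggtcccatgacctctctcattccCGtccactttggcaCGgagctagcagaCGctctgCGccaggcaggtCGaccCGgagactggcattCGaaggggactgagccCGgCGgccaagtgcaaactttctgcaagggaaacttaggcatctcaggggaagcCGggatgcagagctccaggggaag

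The 3 printed start sites differed widely in CG content. The Zic1 sequence held 27 CG dinucleotides, with 66% G and C and an observed-to-expected CG ratio of 0.995. Zic5 held 11, with 62.4% G and C and a ratio of 0.458. Zic4 held 4, with 44.4% G and C and a ratio of 0.376. Over all 32851 entries of the table the median was 6 CG dinucleotides, with quartiles of 2 and 16. Of all entries, 8.56% had as many CG dinucleotides as Zic1 or more, 35.6% as many as Zic5 or more and 62.2% as many as Zic4 or more. Zic1 and Zic4, whose window holds a single joined H3K27me3 region, thus had the highest and the lowest count of the 3 printed starts. Further starts of these genes were not counted. A few short motifs were searched on both strands, with overlapping matches counted. The motif CGCG, itself made of CG dinucleotides, had 6 matches in Zic1 and was present in 33.8% of all entries. The motif CCAAT, the box of many promoters of that name, had 2 matches in Zic1 and was present in 33.8% of all entries. The palindrome CACGTG, an E-box, had 1 match in Zic1 and was present in 6.02%. Zic4 and Zic5 had 0 matches to these 3 motifs. The motif TATAAA of the TATA box had 0 matches in the Zic sequences and was present in 12.4% of entries. These matches describe the letters only.

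**Figure D1:**
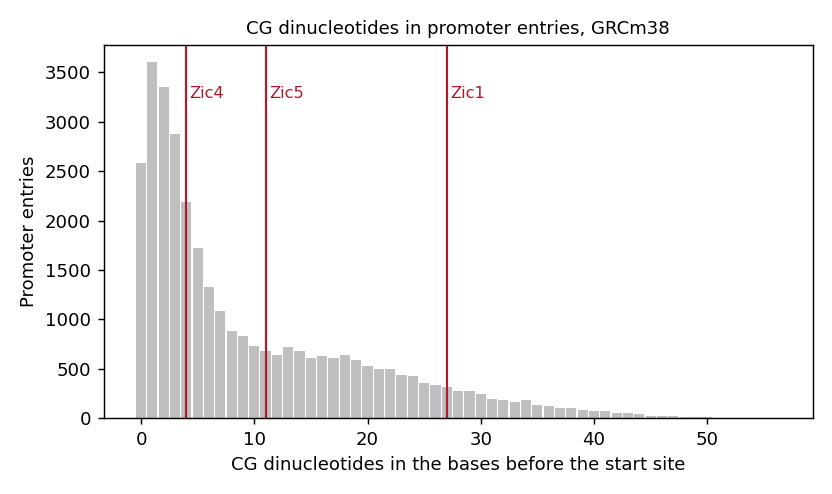
Number of promoter entries of the RefSeq table (vertical axis) by their count of CG dinucleotides in the 250 bases before the start site (horizontal axis), with lines at the 3 Zic entries. Zic4 lies at 4, below the median of 6. Zic5 lies at 11, between the median and the upper quartile of 16, and Zic1 lies at 27, above that quartile.

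Both Zic pairs carried a broad H3K27me3 domain in both mutants. At Zic1 and Zic4 the H3.3K27M list had a single peak of 62999 bp, on mm9 chromosome 9 from 91243201 to 91306199. Inside it lay 3 H3.1K27M peaks. The first was 40399 bp wide, from 91245001 to 91285399. The second was 2599 bp wide, from 91288401 to 91290999, and the third was 5999 bp wide, from 91295601 to 91301599. The mark was thus called as 1 stretch in H3.3K27M cells, while in H3.1K27M cells a long stretch was followed by 2 short ones.

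At Zic2 and Zic5 each list had a single peak. In H3.3K27M cells it was 35599 bp wide, on mm9 chromosome 14 from 122859001 to 122894599. In H3.1K27M cells it was 28999 bp wide, from 122862401 to 122891399. The narrower peak lay inside the wider one, as at the other pair. All 4 H3.1K27M peaks and both H3.3K27M peaks overlapped a peak of the other list. Over the whole lists 81.2% of H3.1K27M and 70.3% of H3.3K27M peaks did, and the members were chosen for having peaks in both.

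**Figure D2:**
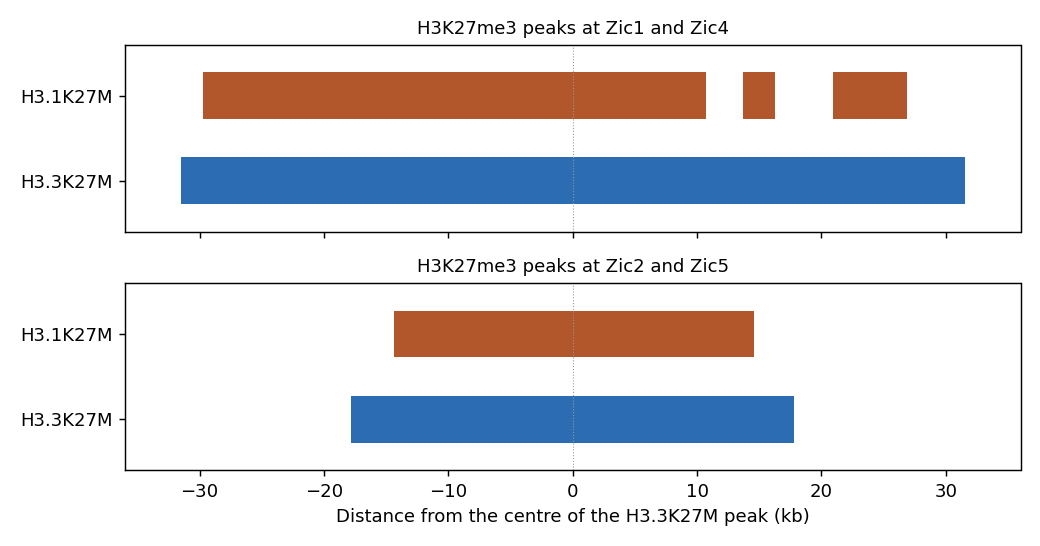
H3K27me3 peaks of the H3.1K27M list (upper bars) and the H3.3K27M list (lower bars) at each Zic pair, drawn to scale by distance from the centre of the H3.3K27M peak in kb. At both pairs every H3.1K27M peak lies inside the H3.3K27M peak, and at Zic1 and Zic4 the H3.1K27M bars are broken at 2 places on the right.

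The main peaks were among the widest of their lists. The H3.3K27M peak at Zic1 and Zic4 ranked 3 of 1192 by width, 8.75 times the list median of 7199 bp. The widest H3.1K27M peak at that pair ranked 12 of 1053, 7.22 times the list median of 5599 bp. Its smaller neighbours were ordinary in width, with rank 470 for the peak of 5999 bp and rank 909 for the peak of 2599 bp, which is below the list median. At Zic2 and Zic5 the H3.3K27M peak ranked 29, 4.94 times its list median, and the H3.1K27M peak ranked 36, 5.18 times its own. The Zic1 and Zic4 region ranked 4 by span among the 831 regions found in both lists and was the widest of the 51 on chromosome 9. The Zic2 and Zic5 region ranked 32 among all and 2 among the 31 on chromosome 14. Both were far above the median span of shared regions, 8.8 kb.

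Covered length was larger in H3.3K27M cells at both pairs. At Zic1 and Zic4 the H3.1K27M peaks covered 49 kb in all and the H3.3K27M peak 63 kb, a difference of 14 kb and a ratio of 1.29 (0.36 on the log2 scale). At Zic2 and Zic5 the lengths were 29 kb and 35.6 kb, a difference of 6.6 kb and a ratio of 1.23 (0.30 on the log2 scale). The Zic ratios lay close to the middle of all shared regions, whose median ratio was 1.255 with quartiles of 1.03 and 1.58. Of the shared regions, 53.4% had a smaller ratio than Zic1 and Zic4 and 46.9% a smaller one than Zic2 and Zic5. Taking a covered length at least 25% larger as the mark of a call, Zic1 and Zic4 passed and Zic2 and Zic5 did not, with 50.2% of the 831 shared regions called in this direction and 9.75% in the other. The call at Zic1 and Zic4 was lost when peaks of a list under 5 kb apart were joined, which gave a ratio of 1.11. H3.3K27M covered more in 77.4% of shared regions, so the direction at the Zic pairs was the common one. The rule fixed that both lists had peaks here, and the width difference has no replicate check. No label states the depth or the peak threshold behind either list, and their part in the difference was not tested.

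**Figure D3:**
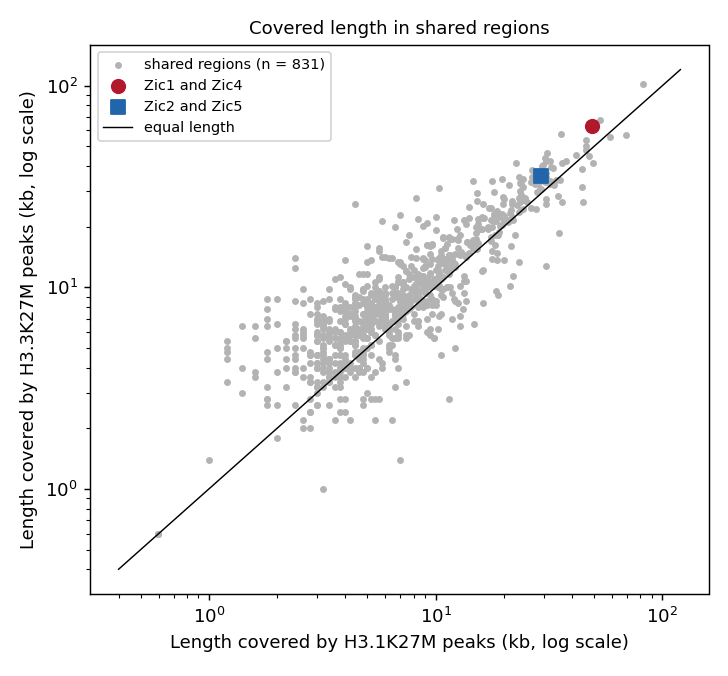
Length covered by H3.3K27M peaks (vertical axis, kb, log scale) against length covered by H3.1K27M peaks (horizontal axis, kb, log scale) in the 831 regions found in both lists, with the Zic pairs marked and a line of equal length. Both Zic pairs lie above the line, at 49 and 63 kb and at 29 and 35.6 kb, within the cloud of other broad regions.

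The Zic pairs were also set beside the shared regions that span 30 kb or more, a size limit chosen after the Zic widths were seen. There were 60 of these, both Zic regions included. Their median ratio was 1.18, with quartiles of 1.00 and 1.36 and a range of 0.418 to 3.00. H3.3K27M covered more in 45 of the 60, and in 23 it covered at least 25% more. The Zic ratios of 1.29 and 1.23 thus lay between the quartiles of the broad regions as well. The length common to both lists was 77.8% of the length covered by either at Zic1 and Zic4 and 81.5% at Zic2 and Zic5. The median was 79.9% over the broad regions and 72.4% over all shared regions.

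The pairs differed in where the H3.1K27M peaks fell short. At Zic2 and Zic5 the shortfall was even, with the H3.3K27M peak reaching 3.4 kb further on the left and 3.2 kb further on the right. At Zic1 and Zic4 it reached 1.8 kb further on the left and 4.6 kb further on the right, and 2 inner gaps in the H3.1K27M peaks, of 3001 and 4601 bp, lay towards the right as well. The H3.3K27M domain at Zic1 and Zic4 was cut into 3 equal parts of 21 kb. The H3.1K27M peaks covered 91.4% of the left part, 100% of the middle part and 41.9% of the right part. Of the 14 kb not covered, 12.2 kb lay in the right part. At Zic2 and Zic5 the same division, into parts of 11.9 kb, gave 71.3%, 100% and 73%. The parts were cut from the H3.3K27M peak itself, so that peak fills each part by construction. At Zic2 and Zic5 a single nested H3.1K27M peak of that length must cover the middle part. At Zic1 and Zic4 the longest H3.1K27M peak would cover it for nearly any placement. The values of 100% therefore do not mark a shared core. Reaching further at both edges was common, since 61.1% of all shared regions showed it for H3.3K27M, and in 71.4% the H3.1K27M length lay wholly inside. The median extension over the broad regions was 2.2 kb on the left and 1.7 kb on the right.

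Several H3.1K27M peaks under a single H3.3K27M peak, as at Zic1 and Zic4, were found in 17 regions, 2.05% of the 831 shared regions, and Zic2 and Zic5 was not among them. Of these 17 regions, 12 were among the 60 shared regions of 30 kb or more. The reverse, several H3.3K27M peaks under a single H3.1K27M peak, was found in 7 of the 831 shared regions and in 5 of the 60 broad ones. Within the 17 regions, 12 held 2 H3.1K27M peaks, 3 held 3, among them the Zic pair, and 2 held 4. Their 24 gaps ranged from 1.8 to 12 kb with a median of 3.1 kb, and the Zic gaps ranked 9 and 13 by length. Ratios of covered length in the 17 regions ran from 0.945 to 1.90, with a median of 1.32, beside 1.29 at Zic1 and Zic4. The smallest gap between neighbouring peaks anywhere in the H3.1K27M list was 1.8 kb, and no shorter break appears in it. In the H3.3K27M list 1 pair of peaks lay 1 bp apart, and the smallest other gap was 1.4 kb. Gaps under 5 kb numbered 32 in the H3.1K27M list and 18 in the H3.3K27M list. When H3.1K27M peaks under 5 kb apart were joined, both gaps at Zic1 and Zic4 closed. The ratio of 1.11 there was then below that at Zic2 and Zic5.

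Both Zic domains stood alone in long stretches without other peaks. In H3.1K27M cells the nearest peak before the Zic1 and Zic4 domain lay 4.33 Mb away, from 86908801 to 86912999, and the nearest after it 4.16 Mb away, from 95458801 to 95462199. In H3.3K27M cells the following peak lay 4.15 Mb away at the same place, from 95455801 to 95465599. Before the domain the H3.3K27M list had a peak 1.44 Mb away, from 89801601 to 89807199, that was 5.6 kb wide and had no partner in the H3.1K27M list. The Zic2 and Zic5 domain was the last peak of chromosome 14 in both lists. The peak before it lay 3.32 Mb away in both, from 119535401 to 119538999 in H3.1K27M cells and from 119534601 to 119540799 in H3.3K27M cells. The nearest peaks left outside the windows were thus over 1 Mb away. They were from 3.4 to 9.8 kb wide, and the widest, in H3.3K27M cells after Zic1 and Zic4, was wider than the median peak of its list. The running peak numbers had 0 unused values between the Zic domains and these neighbours. In the H3.3K27M list, however, the peak after Zic1 and Zic4 carries number 1193 although the list holds 1192 peaks. The numbers thus run past the size of that list. Whether the H3.1K27M numbers also do so was not examined, and whether peaks of either list were left out elsewhere is not stated.

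The distance to the nearest other region of either list was 1.44 Mb for Zic1 and Zic4 and 3.32 Mb for Zic2 and Zic5. Over all 1383 regions, 19.4% had their nearest neighbour over 1 Mb away, and the Zic regions ranked 188 and 71 from the most distant. Among the 60 broad regions the median distance was 0.0631 Mb, 9 lay over 1 Mb from the next region, and Zic2 and Zic5 ranked 4 and Zic1 and Zic4 ranked 8. Most broad regions were therefore close to another region, and the Zic pairs were not. The distance of 1 Mb was chosen after these values were seen. For the Zic2 and Zic5 region only the side before it could be measured.

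**Figure D4:**
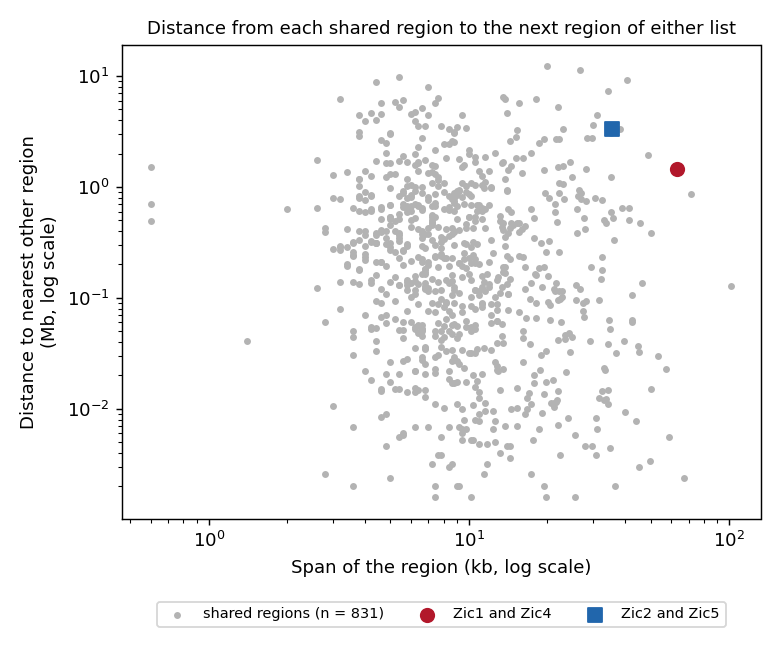
Distance from each region found in both lists to the nearest other region of either list (vertical axis, Mb, log scale) against its span (horizontal axis, kb, log scale), with the Zic pairs marked. Zic1 and Zic4 lies at 63 kb and 1.44 Mb and Zic2 and Zic5 at 35.6 kb and 3.32 Mb, above most regions of their width.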

How the data were processed

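H3K27me3 chromatin immunoprecipitation was analysed in 2 groups, H3.1K27M and H3.3K27M fibroblasts, each with 2 replicate samples and 1 peak list. Per the submitters' processing notes, the authors aligned reads with Bowtie 1.0.0 to mm9 and used deepTools. For the peak caller, its threshold, the depth and any pooling of replicates, nothing is stated (not given in the sources used here). Each deposited list gives position and width in bp with no height or p-value. Starts lie on a 200 bp grid. Starts were taken as counted from 0, as in BED files, and printed counted from 1.

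Peaks overlapping by at least 1 bp were joined into regions, and covered lengths, edges, gaps and distances were computed with Python 3.11.15, numpy 2.4.6 and pandas 2.3.3. The steps were tested on simulated intervals. With 1 list per group no test was run. The members and the named genes were chosen with earlier results of these data known, and all 4 members are named. Alternatives covered the overlap rule, merging, the window, narrow peaks and the reading of the end column. Relatives of the Zic genes were not analysed here, since the gene table describes another build.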

Additional observations from a re-analysis of the deposited data

How the results depend on the processing

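Joining peaks of a list under 5 kb apart lowered the covered length ratio (H3.3K27M over H3.1K27M) at Zic1 and Zic4 from 1.29 to 1.11 and raised the common length from 77.8% to 89.8%, since the inner gaps then count as covered. The call of at least 25% more covered length there was lost. Leaving out peaks narrower than their list's median dropped the 2599 bp peak and gave 1.36 and 73.6%. Requiring a reciprocal overlap of 50% left 2 of the 4 H3.1K27M peaks (50%) with a partner. By construction that rule leaves out the 2 short peaks under the wide H3.3K27M peak. The other 25 of 30 values computed under alternatives were counted as the same. For ratios and common lengths this meant a shift smaller than a 200 bp step would give, and for partner shares a value of 100%. All ratios and common lengths at Zic2 and Zic5 were among them. Only ratios could be counted as reversed, and 0 were. Widening the window, cutting peaks at its edges and merging under 1 kb could not change any value, given the gaps and distances above. At Zic2 and Zic5, with 1 wide peak per list, merging and leaving out narrow peaks could not either. The count of 25 is therefore no measure of robustness. Reading each end 1 bp later was added after seeing the data. No paired analysis was possible because the 2 replicates of a group share 1 list, so leaving out a replicate was not possible either. The unknown depth limits every statement on a gap or an absent peak.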
